A study of Rattus norvegicus with 9 samples.

Results

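The comparison described here set arteries of Wistar-Kyoto (WKY) rats given adrenocorticotropic hormone (ACTH) against arteries of untreated WKY rats, a comparison with the same strain on both sides. It holds 6 of the 9 arrays of the series, 3 of ACTH-treated and 3 of untreated animals, which are called ACTH 1 to ACTH 3 and WKY 1 to WKY 3 below. All animals were male and 16 weeks old, and the treated rats received ACTH under the skin for 4 weeks from week 12 at 0.1 mg/kg/day by the labels. The study's methods state another dose, so the dose is not settled here. The other 3 arrays held arteries of untreated male spontaneously hypertensive rats (SHR) of the same age. They entered the model for its estimate of spread, and their values stand beside some results as untreated arteries of another strain. Each array held RNA pooled from 2 to 3 rats and amplified before hybridisation, so the p-values measure the spread between pools. The labels give the control rats no treatment and name no vehicle, so the hormone and its way of delivery cannot be told apart. The tissue was a primary branch of the saphenous artery, a muscular artery of the hind limb.

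ACTH is the pituitary hormone that drives the adrenal cortex, and in the rat the main steroid it releases is corticosterone. Corticosterone enters cells, binds the glucocorticoid and mineralocorticoid receptors, and these then act on genes directly, some raised and others repressed. Prolonged ACTH raises blood pressure in rats. Glucocorticoids are also known to restrain inflammation and interferon signalling, to lower collagen synthesis, to move fatty acids out of fat stores and to set the phase of clocks in peripheral tissues. The question the comparison addresses is which arterial genes differ after weeks of hormone treatment.

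RNA was measured on an array of 15923 probesets, each a set of short probes for the 3' end of a transcript. Signals are in arbitrary units on a linear scale, with a trimmed mean near 150 on every array. A probeset was kept when its third-highest signal over the 9 arrays reached 44.3, which left 9099 of 15866 that are not controls. Of these, 7721 carried 1 gene symbol, for 6898 genes. Differences below are log2 ACTH minus log2 WKY with their standard error (SE) from limma, with n = 3 arrays a group throughout. A probeset is said to be called, or to have risen or fallen, when its Benjamini-Hochberg adjusted p over all 9099 was below 0.05.

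The arrays carried the markers of an arterial wall. All 7 smooth muscle markers were kept, with summed signals of 21959 to 25283 in WKY and 21790 to 23725 in ACTH. The endothelial markers Pecam1, Vwf, Kdr, Tie1 and Nos3 were kept as well, while the fast skeletal myosins Myh4 and Myh2 stayed at or below 6.31 on these 6 arrays. Of the other skeletal muscle markers, Ckm, Tnnt3 and Tnni2 were under the minimum, and Acta1 and Myl1 were kept. Acta1 read 574, 420 and 436 in WKY and 668, 743 and 711 in ACTH, higher on every treated array without a call (0.58 ± 0.15, adjusted p = 0.122). Myl1 differed by 0.11. Macrophage markers were present at low level and were uneven among the controls, with sums of 201.8, 700.1 and 318.6 on WKY 1 to WKY 3 and 1130, 1199 and 782 on ACTH 1 to ACTH 3. WKY 2 thus stood closer to the treated arrays than the other controls did. Of 3 kept adipocyte markers only Cfd was higher on every ACTH array. Fabp4, at 33.6, 72.6 and 10.1 in WKY and 39.1, 33.3 and 31.7 in ACTH, overlapped between the groups, Lipe differed by -0.48 without a call, and Plin1 and Lep were under the minimum. In whole arteries fewer cells of a type and less RNA per cell cannot be told apart. The 3 ACTH arrays were scanned on 1 day together with SHR 3, WKY 2 on another day with SHR 1 and SHR 2, and WKY 1 and WKY 3 each on a day of its own. No day held both ACTH and WKY arrays, so treatment and scan day are separated only through the SHR arrays. The 3'/5' signal ratio of GAPDH, which grows as RNA is degraded or shortened in amplification, was 5.41 ± 0.541 (SD, n = 3) in WKY and 4.05 ± 0.436 in ACTH. An exact two-sided permutation test gave p = 0.1 for that ratio, the smallest p that 3 against 3 allows.

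Between treated and untreated arteries 110 probesets were called, which is 1.21% of those tested. Of these, 50 rose (0.55%) and 60 fell (0.659%). They stood for 91 named genes, 42 raised and 49 lowered, while 14 called probesets had no single symbol. By the brightest probeset of each gene 83 of 6898 genes were called (1.2%), and 3738 genes differed above 0 and 3160 below. The groups did not overlap at any called probeset, and they did not overlap at 20.5% of all kept probesets. Called differences ran from 0.68 to 3.00 in size on the log2 scale, and 36 raised and 40 lowered probesets were over 2-fold. Raised and lowered probesets differed in their starting level. The lowered ones had a median WKY signal of 347 and came down to 139, whereas the raised ones began at 56.8 and came up to 154. Among the 50 raised probesets, 4 had passed the minimum through the ACTH arrays alone (Il1r2, Adgrv1, Ces1d and Dixdc1), and 2 of the 60 lowered ones through the WKY arrays alone (Mx2 and Cntn2). These 6 had to differ between the groups to be tested, and they support nothing here. Others, among them the following, also passed only with the help of the group where they were high. Outside the ACTH arrays, Rbp4 reached the minimum only on SHR 2 (48.9), and Clec4a3 (46.5) and Ms4a6bl1 (49.7) only on SHR 1. Cd300c2 reached it only on WKY 2 (44.5). Outside the WKY arrays, Mx1 reached it only on SHR 3 (55.8), Basp1 only on ACTH 1 (48.1) and Rpl3l only on SHR 2 (52.2). Mettl26 (79.2 and 53.3) and Pola2 (54.9 and 54.3) reached it there only on SHR 2 and SHR 3. The called probeset of Ide reached it outside the ACTH arrays only on SHR 1 (45.2) and SHR 2 (49.2).

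**Figure D1:**
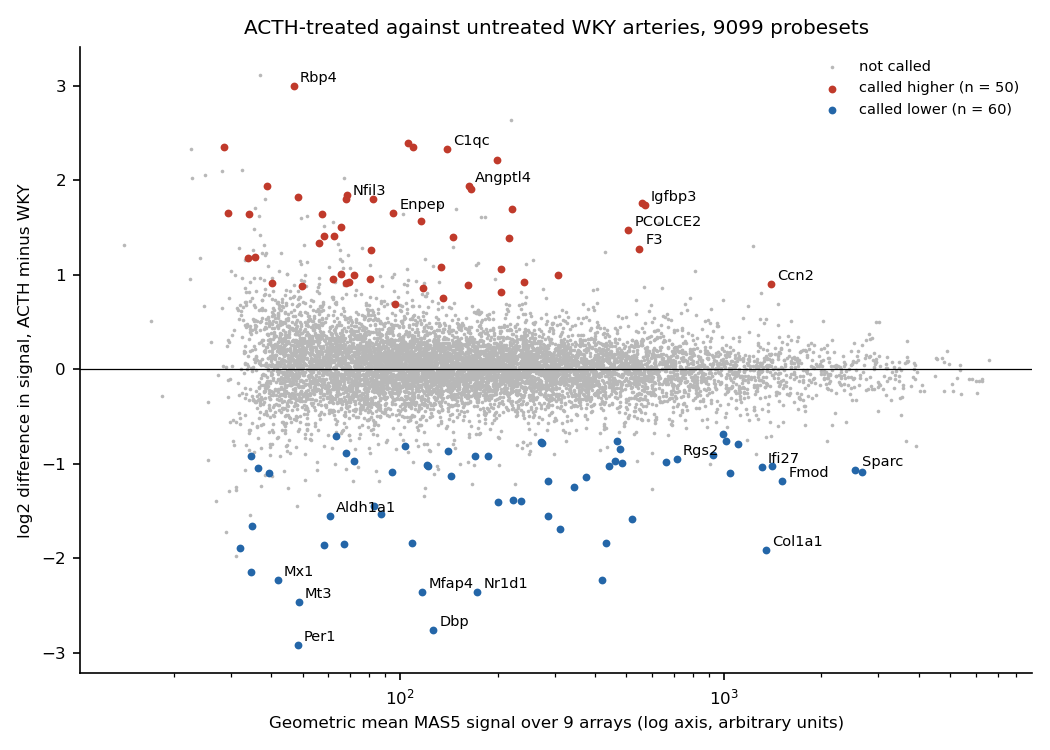
Log2 difference in signal between ACTH and WKY arrays (vertical axis) against the geometric mean signal over all 9 arrays (horizontal, log axis) for 9099 probesets, with 50 called higher in red, 60 called lower in blue and the rest in grey. Lowered genes such as Col1a1, Fmod and Sparc lie among the bright probesets, and the raised probesets had a median WKY signal of 56.8.

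Least dependent on any single array were 26 calls that remained below the threshold whichever of the 6 arrays was left out. Those that fell were Slfn4, RT1-T24-3, Aldh1a1, Nrep, Fmod, Mettl26, Sorl1, Col1a1, Col1a2, Igfbp5, Gadd45g, Adamts9, Basp1, Mx1 and Mt3. Those that rose were Enpep, Ms4a6bl1, Igfbp3, Rbp4, F3, PCOLCE2, Aldh3a1, Clec4a3 and Angptl4. Among these genes Rbp4, Ms4a6bl1, Clec4a3, Mx1, Basp1 and Mettl26 passed the minimum only with the help of the group where they were high. Enpep rose by its dimmer probeset only. With scan day as a block no probeset was called, 845 had an unadjusted p below 0.05 and the lowest adjusted p was 0.205. In that fit all 110 called probesets had the sign they have here, and the median ratio of the 2 estimates was 1.06. Single estimates moved in both directions. Tnmd shrank from -1.13 to -0.20, Cfd from 2.36 to 0.90 and Car3 from 2.39 to 0.95. Dbp grew from -2.76 to -4.38 and Cpz from -1.86 to -3.08. With the GAPDH ratio as a covariate no probeset was called either, 771 had an unadjusted p below 0.05, and all 110 again had the same sign, at a median ratio of 0.947.

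Of 13 kept genes of the circadian clock, 4 fell, 1 rose and 8 were not called, at a median difference of -0.38 against 0.02 over all genes, of which 1.2% were called. The clock is a loop in which Bmal1 and Clock switch on the period genes and the REV-ERB genes Nr1d1 and Nr1d2, whose products then repress the loop. Dbp, an activator, and Nfil3, a repressor, form its output arm and compete for the same DNA element, the D-box. In treated arteries Dbp, Per1, Nr1d1 and Nr1d2, all of which Bmal1 drives, fell and Nfil3 rose. Dbp read 136, 298 and 352 on WKY 1 to WKY 3 and 34.2, 34.9 and 38.4 on ACTH 1 to ACTH 3. The controls were spread while the treated arrays lay within a narrow band far below them, at a difference of -2.76 ± 0.47 (adjusted p = 0.023).

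Nr1d1 signals of 279, 393 and 421 in WKY stood against 63.0, 78.5 and 69.7 in ACTH, a difference of -2.35 ± 0.33 (adjusted p = 0.00923). Its sister gene Nr1d2 was the most even of the group, with 576, 575 and 573 in WKY against 258, 274 and 324 in ACTH (-1.02 ± 0.15, adjusted p = 0.0125). The groups did not overlap in either REV-ERB gene. Per1, a repressor of the loop that glucocorticoids are also known to induce, gave 113, 142 and 86.4 in WKY and 8.20, 8.46 and 46.2 in ACTH, which with signals under 20 raised to 20 is at least 4.21-fold lower (adjusted p = 0.0345). ACTH 3 lay well above the other 2 treated arrays in this gene. Nfil3 rose from 65.1, 43.3 and 21.2 to 137, 143 and 129 (1.80 ± 0.32, adjusted p = 0.0277).

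The remaining members were not called. Bmal1 itself read 62.3, 45.6 and 50.1 in WKY and 132, 112 and 119.6 in ACTH, opposite to its targets, without passing the test (1.21 ± 0.33, adjusted p = 0.141). Per2 was at 113, 149.9 and 219 against 94.3, 79.9 and 95.0, and Bhlhe41, another repressor of the loop, was at 132, 288 and 281 against 112, 102 and 74.1. Neither gene overlapped between the groups, and the adjusted p-values were 0.161 and 0.175. Clock, Cry2, Hlf and Csnk1d had differences between -0.21 and 0.22, and Usp2 one of -0.38. The untreated arrays also differed among themselves in these genes. WKY 1 was below WKY 2 and WKY 3 in Dbp, Nr1d1, Per2 and Bhlhe41 and above them in Bmal1, and among the untreated SHR arrays SHR 1 was lowest in Dbp (105), Nr1d1 (110.0) and Bhlhe41 (135) and highest in Bmal1 (102). SHR 3, scanned on the same day as the ACTH arrays, had 431 for Dbp, above every control, and 305 for Nr1d1, within the range of the controls. The median over the 13 genes was -1.06 with scan day as a block and -0.16 with the GAPDH ratio as a covariate. The hour at which animals were killed is not given in the sources used here.

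**Figure D2:**
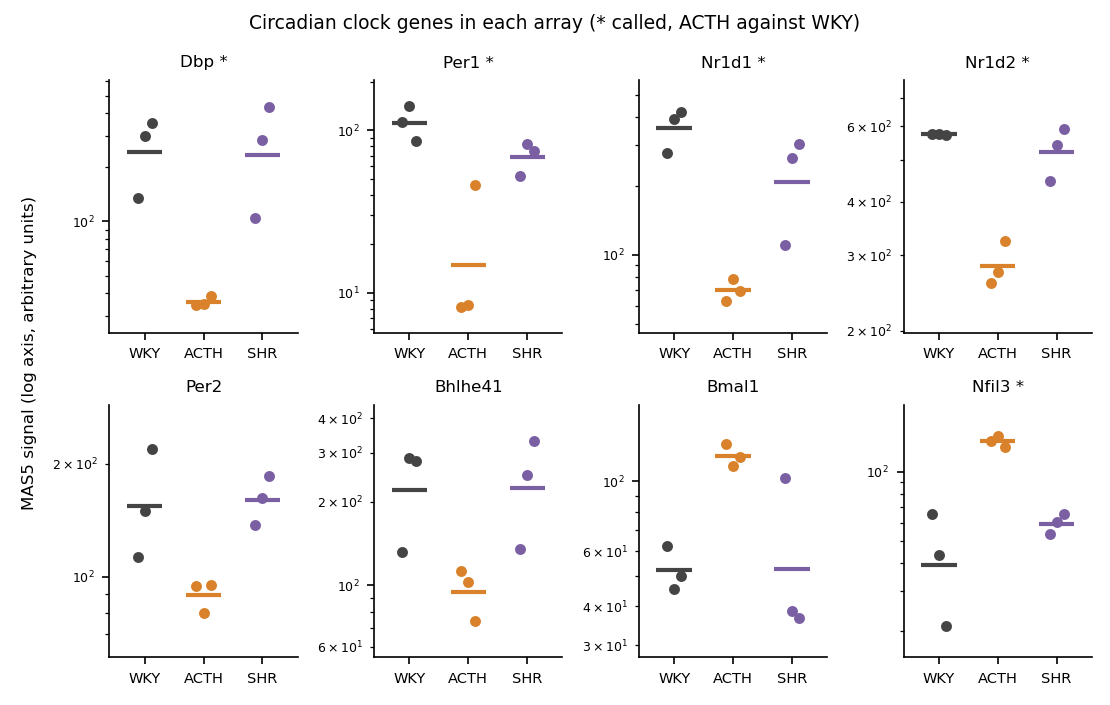
MAS5 signal (log axis, arbitrary units) of 8 clock genes on the 3 WKY, 3 ACTH and 3 SHR arrays, with a point for each array, a bar for the geometric mean of a group and an asterisk for genes called between ACTH and WKY. The ACTH points of Dbp, Nr1d1 and Nr1d2 lie below all WKY and SHR points, and those of Bmal1 and Nfil3 above them.

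Both DNA elements of this loop were looked for in the 250 bases before the start of each gene, on both strands, in RefSeq promoters of the rat assembly GRCr8. The E-box CACGTG, bound by Bmal1 with Clock, was held by 6.18% of 27457 genes and by 2 of the 11 clock genes with a promoter, Nr1d1 and Bhlhe41. The D-box TTATGNAA was held by 3.46% of all genes, by 4 of 30 raised genes with a promoter (Ces1d, Enpep, Hspa2 and Rbp4) and by 0 of 40 lowered ones. Of these 4, Ces1d had passed the minimum through the ACTH arrays alone and Rbp4 with their help. Enpep rose by its dimmer probeset only, and its brighter one differed by 0.07 ± 0.21 (adjusted p = 0.931). Promoters are shown for Nr1d1, with the E-box, and for Rbp4 and Enpep, each with a D-box. The motifs are in capitals, and that of Enpep reads TTATGNAA on the other strand. Positions are chr10:84229455-84229704 for Nr1d1, chr1:245313552-245313801 for Rbp4 and chr2:220526219-220526468 for Enpep, all on the minus strand, and the motif begins 191, 150 and 203 bases before the start. Nr1d1 has 2 promoters in the table and the one with the motif is given. The motifs were chosen with the results known, and a match describes these letters without showing that a factor binds there.
Nr1d1: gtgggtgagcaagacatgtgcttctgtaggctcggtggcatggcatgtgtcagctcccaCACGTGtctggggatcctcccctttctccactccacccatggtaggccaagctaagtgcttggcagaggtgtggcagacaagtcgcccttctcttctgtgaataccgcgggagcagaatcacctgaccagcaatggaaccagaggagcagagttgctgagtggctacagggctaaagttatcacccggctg
Rbp4: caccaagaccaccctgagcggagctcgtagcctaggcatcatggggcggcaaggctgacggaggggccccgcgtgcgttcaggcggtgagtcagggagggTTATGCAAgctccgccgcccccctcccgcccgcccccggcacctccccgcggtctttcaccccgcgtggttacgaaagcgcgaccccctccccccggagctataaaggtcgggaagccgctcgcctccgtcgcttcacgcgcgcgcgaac
Enpep: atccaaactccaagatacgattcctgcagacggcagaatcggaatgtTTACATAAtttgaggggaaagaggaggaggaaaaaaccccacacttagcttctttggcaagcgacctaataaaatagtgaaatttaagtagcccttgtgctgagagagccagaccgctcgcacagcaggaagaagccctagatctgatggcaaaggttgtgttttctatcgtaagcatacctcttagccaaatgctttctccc

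Genes that interferon switches on fell after ACTH in 6 cases. Many targets of type I interferon carry a repeated GAAA element in their promoters. Of 38 kept genes for interferon response and antigen presentation, 6 fell, none rose and 32 were not called. Differences were below 0 in 34 of the 38, with a median of -0.42 against 0.02 over all genes. Of all 6898 genes 3160 were below 0, and 1.2% were called. The called genes were Mx1, Mx2, Ifi27, Ifi27l2b, Gbp2 and Oas1a, all of which interferon is known to induce. Mx1, a GTPase that blocks influenza virus, fell from 65.2, 95.3 and 121 to 27.4, 18.5 and 14.3, at least 4.10-fold with signals under 20 raised to 20 (adjusted p = 0.00852). Mx2 fell from 58.2, 50.5 and 69.8 to 18.8, 11.7 and 30.0, at least 2.58-fold (adjusted p = 0.0248). Neither gene had a treated array within the range of the controls. Mx2 had passed the minimum through the WKY arrays alone, so its call is no support for the count. Outside the WKY arrays Mx1 reached the minimum only on SHR 3 (55.8), so its place too depended on the group where it was high.

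Brighter members fell as well. Ifi27 signals of 1403, 1862 and 1872 in WKY stood against 779.7, 1029.5 and 713 in ACTH (-1.03 ± 0.18, adjusted p = 0.0247), and Ifi27l2b signals of 389, 679 and 375 against 133, 226 and 130.3 (-1.55 ± 0.27, adjusted p = 0.023). Gbp2, an interferon-induced guanylate-binding protein, read 168, 187 and 187 against 89.6, 82.0 and 97.7 (-1.01 ± 0.18, adjusted p = 0.0269). Oas1a, which makes the oligoadenylate that activates RNase L, read 93.6, 96.6 and 139.9 against 62.5, 49.9 and 54.2 (-0.97 ± 0.19, adjusted p = 0.0361). In all 4 genes the highest treated array was below the lowest control.

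Signalling genes of the pathway were not called. Irf9 was at 155, 238 and 155 in WKY and 68.7, 94.5 and 54.5 in ACTH (-1.34 ± 0.28, adjusted p = 0.0537), and Irf7, which amplifies the response, was at 123, 179 and 150.2 against 81.4, 73.8 and 92.6 (-0.86 ± 0.18, adjusted p = 0.0539). Stat2 (-0.68) and the brake Usp18 (-1.03) were not called, at adjusted p-values of 0.176 and 0.132. Genes of antigen presentation in the list were not called. B2m, the light chain of class I molecules, was at 2249, 2186 and 2842 against 1746, 1872 and 1651 (-0.46 ± 0.14, adjusted p = 0.188), Psmb8 of the immunoproteasome differed by -0.44 and the peptide transporter gene Tap1 by -0.37. Outside the list, 3 more genes of immune function fell. RT1-T24-3, a class I gene, went from 571, 909 and 737 to 206, 187 and 218 (-1.84 ± 0.20, adjusted p = 0.00456), Slfn4, a schlafen of myeloid cells, from 190.2, 267 and 163 to 63.9, 55.2 and 51.1 (-1.84 ± 0.19, adjusted p = 0.00456), and Lgals3bp by -1.02 ± 0.17. WKY 2 had the highest signal of the controls in Ifi27l2b, Irf9, Irf7, RT1-T24-3 and Slfn4. Without it the median over the list was -0.26, and with scan day as a block it was -0.69. Class I genes of the rat are near-identical copies, and probes may be shared among them.

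The element searched, GAAA followed after any 2 bases by GAAA, was held by 3.61% of 27457 RefSeq promoters on either strand, by 16 of the 32 listed genes with a promoter (50.0%), by 6 of 40 lowered genes (Gbp2, Ifi27, Lgals3bp, Mettl26, Oas1a and Per1) and by 0 of 30 raised genes. Of the called members of the list with a promoter it was in 3 of 4. These are printed with the element in capitals to show its place, at 169 and 84 bases before the start in Ifi27, 31 in Gbp2 on the other strand, and 41 and 35, overlapping, in Oas1a. Positions are chr6:128355062-128355311, chr2:234005477-234005726 and chr12:41330216-41330465, all on the plus strand of GRCr8.
Ifi27: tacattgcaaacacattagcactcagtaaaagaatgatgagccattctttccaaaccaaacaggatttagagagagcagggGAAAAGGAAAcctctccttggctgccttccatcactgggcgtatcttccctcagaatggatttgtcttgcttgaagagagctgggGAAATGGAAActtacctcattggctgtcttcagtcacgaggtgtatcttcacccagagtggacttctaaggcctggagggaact
Gbp2: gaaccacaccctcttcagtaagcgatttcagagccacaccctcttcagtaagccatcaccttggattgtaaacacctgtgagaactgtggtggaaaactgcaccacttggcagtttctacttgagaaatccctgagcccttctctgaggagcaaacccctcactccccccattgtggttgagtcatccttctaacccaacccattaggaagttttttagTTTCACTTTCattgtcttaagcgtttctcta
Oas1a: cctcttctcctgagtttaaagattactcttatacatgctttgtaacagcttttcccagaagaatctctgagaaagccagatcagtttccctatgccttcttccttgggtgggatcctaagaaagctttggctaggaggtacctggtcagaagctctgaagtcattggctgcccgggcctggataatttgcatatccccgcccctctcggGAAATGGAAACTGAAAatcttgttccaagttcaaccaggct

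Macrophage genes lay in the other direction. Of 24 kept macrophage genes 3 rose and none fell, 21 had a difference above 0 and the median was 1.04. Over all 6898 genes 1.2% were called, 3738 were above 0 and the median was 0.02. C1qc, a chain of the complement starter C1q that tissue macrophages make, read 35.0, 165 and 50.8 in WKY and 392, 402 and 239.5 in ACTH (2.34 ± 0.47, adjusted p = 0.0459). WKY 2 was the highest control by far, and still lay below every treated array. C1qa, at 37.0, 181 and 59.4 against 247, 303 and 197, was in the same order without being called (adjusted p = 0.124). Gpnmb, a glycoprotein of lysosome-rich macrophages, rose from 143, 191 and 147 to 286, 271 and 280.3 (0.81 ± 0.15, adjusted p = 0.0343). Ms4a6bl1, of the MS4A membrane family, rose from 20.8, 30.5 and 33.1 to 91.7, 103 and 97.8 (1.82 ± 0.19, adjusted p = 0.00456). Outside the ACTH arrays it reached the minimum only on SHR 1 (49.7).

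Outside the list 2 receptors of myeloid cells rose. Clec4a3, a lectin receptor, went from 10.5, 18.6 and 9.17 to 62.3, 76.0 and 51.1, at least 3.12-fold (adjusted p = 0.00816), and Cd300c2 from 19.9, 44.5 and 27.9 to 104, 111 and 66.1 (1.65 ± 0.32, adjusted p = 0.038). Both were dim in the controls, and both passed the minimum only with the help of the ACTH arrays. Defining macrophage genes were not called, among them Cd68 (1.12 ± 0.34, adjusted p = 0.181), Csf1r, the receptor for the macrophage growth factor (1.15 ± 0.32, adjusted p = 0.142), Lyz2 (1.55 ± 0.41, adjusted p = 0.125) and Cd14 (0.88 ± 0.18, adjusted p = 0.0535). The exceptions in sign included Cd74 (-0.64), the invariant chain of class II molecules, which is also in the interferon list. The median was 1.28 without WKY 2, between 0.82 and 1.09 without any other array, and 0.60 with scan day as a block. The summed signal of the 24 genes was 3706, 6486 and 3318 on WKY 1 to WKY 3, 7632, 9053 and 6510 on ACTH 1 to ACTH 3 and 6249 to 7508 on the SHR arrays. WKY 2 and ACTH 3 thus nearly met.

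**Figure D3:**
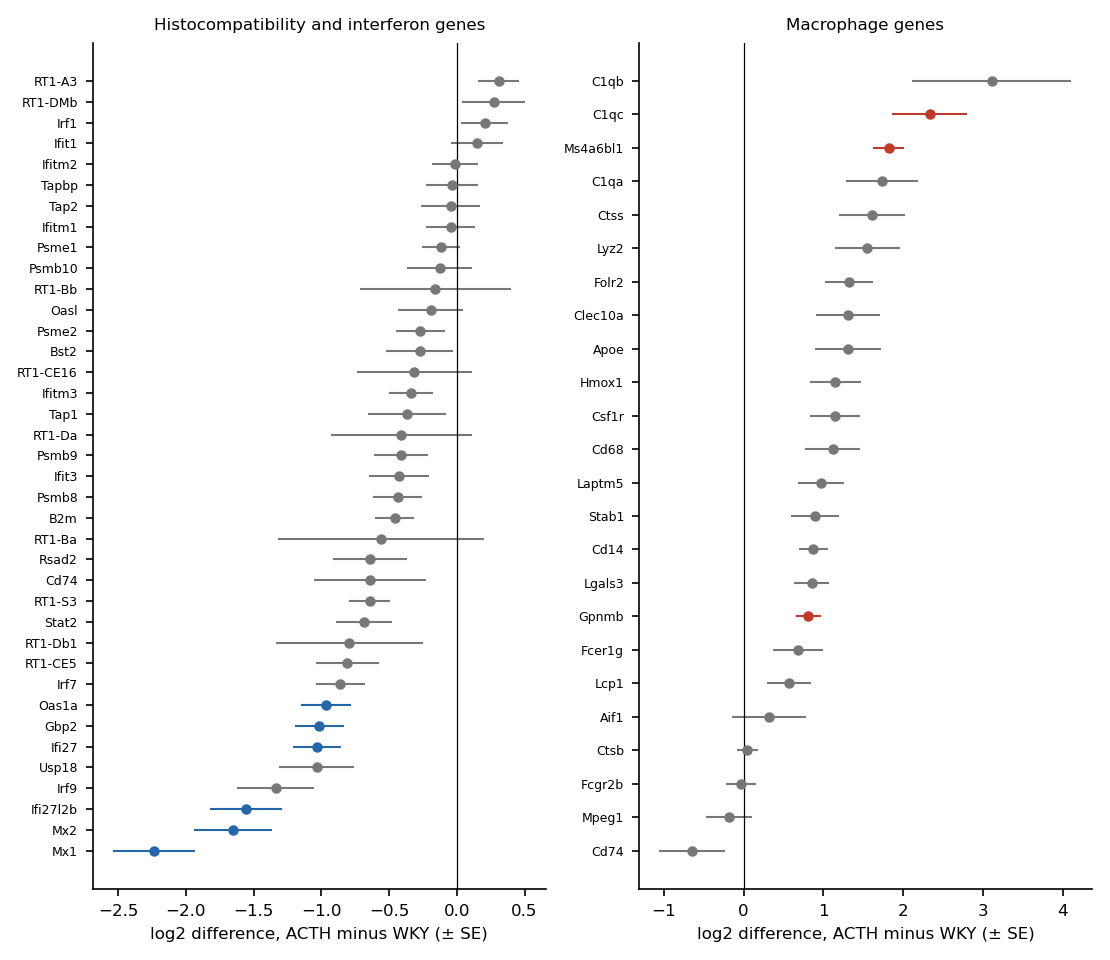
Log2 difference in signal between ACTH and WKY arrays with its SE for 38 histocompatibility and interferon genes (left) and 24 macrophage genes (right), ordered by size, with called genes in blue (lower) or red (higher). The interferon genes begin with Mx1 at -2.23 and 34 of the 38 lie left of 0, and 21 macrophage genes lie to the right of 0.

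Other inflammatory lists held few calls. Of 23 chemokine, cytokine and receptor genes 2 rose, Il1r2 and Spp1, against 1.2% called over all genes. The median was 0.27, and -0.05 with scan day as a block. Il1r2, the decoy receptor that mops up interleukin-1 and that glucocorticoids are known to induce, went from 26.0, 28.5 and 27.3 to 66.5, 49.9 and 70.9 (1.18 ± 0.24, adjusted p = 0.0474). It had passed the minimum through the ACTH arrays alone. Pf4, a chemokine of platelets and some macrophages, rose from 57.2, 139.5 and 84.8 to 342, 423 and 245 (1.90 ± 0.30, adjusted p = 0.0149). Of 12 complement genes C1qc and Cfd rose and 10 were not called, against 1.2% called over all genes. C1qc is also counted in the macrophage list and Cfd in the adipocyte list. The T-cell genes Cd3d, Cd3e, Cd3g and Cd2 were under the minimum.

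Of the kept collagen genes 5 fell by their brightest probeset and the others were not called by it. Collagens I, III and V build the load-bearing fibrils of the vessel wall, collagens IV, XV and XVIII belong to basement membranes, and collagens VI and VIII form networks around cells. All 5 kept fibrillar collagens and all 11 other collagens had differences below 0, with medians of -0.81 and -0.75, and 2 and 3 of them fell by their brightest probeset. Over all 6898 genes 3160 were below 0 and 1.2% were called. Col1a1 read 2438, 3207 and 1941 in WKY and 851, 760.3 and 439 in ACTH (-1.91 ± 0.26, adjusted p = 0.00852). Its dimmer probeset fell as well, from 719, 977 and 1046 to 365, 189 and 104 (-2.23 ± 0.38, adjusted p = 0.023). The treated arrays differed among themselves, with ACTH 3 lowest in both.

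For Col1a2, the partner chain of type I collagen, 1 probeset fell from 4511, 3537 and 3448 to 1935, 1849.6 and 1622 (-1.08 ± 0.15, adjusted p = 0.00853), and the brighter one, 5094, 5025 and 4301 against 3204, 2984 and 2144, was just above the threshold (-0.81 ± 0.17, adjusted p = 0.0515). Col3a1, at 4174, 4367 and 3985 against 2841, 2524 and 2105, was not called (-0.76 ± 0.17, adjusted p = 0.0757). No treated array reached a control in any of these. Col5a1 fell by its brightest probeset from 1156, 1909 and 1404 to 672, 791 and 596 (-1.10 ± 0.20, adjusted p = 0.0303). Among the others, Col6a3 fell by 1.02 ± 0.15 (adjusted p = 0.0128), Col15a1 by 0.97 ± 0.18 (adjusted p = 0.0337) and Col8a1 by 0.75 ± 0.15 (adjusted p = 0.0396). Col4a1, the main chain of the basement membrane, was at 2058, 2174 and 2326 against 1468, 1405 and 1481 (-0.59 ± 0.13, adjusted p = 0.0745). The smallest difference was that of Col4a5, at -0.12. The fibrillar median was -0.64 without ACTH 3 and -0.92 without ACTH 1, and with scan day as a block the 2 collagen medians were -0.91 and -0.84. With the GAPDH ratio as a covariate the medians were -0.84 and -0.49.

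Genes for collagen processing were called in both directions. Of 16 kept genes for collagen processing, Pcolce and Sparc fell, PCOLCE2 rose and 14 had differences below 0. Among all 6898 genes 1.2% were called and 3160 were below 0. Pcolce, which speeds the cleavage of the C-propeptide, fell from 492, 677 and 372 to 162, 189.6 and 121 (-1.69 ± 0.26, adjusted p = 0.0136). PCOLCE2, another enhancer of the same cleavage, went the other way, from 276, 431 and 315 to 1011, 925 and 853 (1.47 ± 0.19, adjusted p = 0.00814). The groups did not overlap in either gene. Sparc, which binds collagen outside the cell, fell from 2809, 3356 and 3317 to 1752, 1488 and 1304 (-1.07 ± 0.17, adjusted p = 0.0149). The collagen chaperone gene Serpinh1 (-0.60, adjusted p = 0.124) and the crosslinking oxidase genes Lox (-0.54) and Loxl1 (-0.48) were below 0 and not called. P3h3, a collagen prolyl 3-hydroxylase named here although it was not in the list, fell by 0.84 ± 0.14 (adjusted p = 0.0188).

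Among 12 proteoglycans and related small matrix proteins 2 fell, against 1.2% called over all genes. Fmod, which binds fibrils and limits their thickness, went from 2289.6, 2037 and 2064 to 934, 1008 and 882 (-1.18 ± 0.14, adjusted p = 0.00553), and Tnmd from 299, 204 and 296 to 108, 132 and 122 (-1.13 ± 0.21, adjusted p = 0.0312). Decorin stood against this, as Dcn was at 2493, 2353 and 2894 in WKY and 3694, 3503 and 3736 in ACTH, higher in every treated array without being called (0.50 ± 0.15, adjusted p = 0.174). Bgn differed by -0.56 and Lum by -0.38. With scan day as a block the difference of Tnmd was -0.20. Of 15 elastic fibre genes only Mfap4, which binds elastin and collagen, was called, from 237, 237 and 174 to 56.4, 56.8 and 22.9 (-2.35 ± 0.38, adjusted p = 0.0176).

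**Figure D4:**
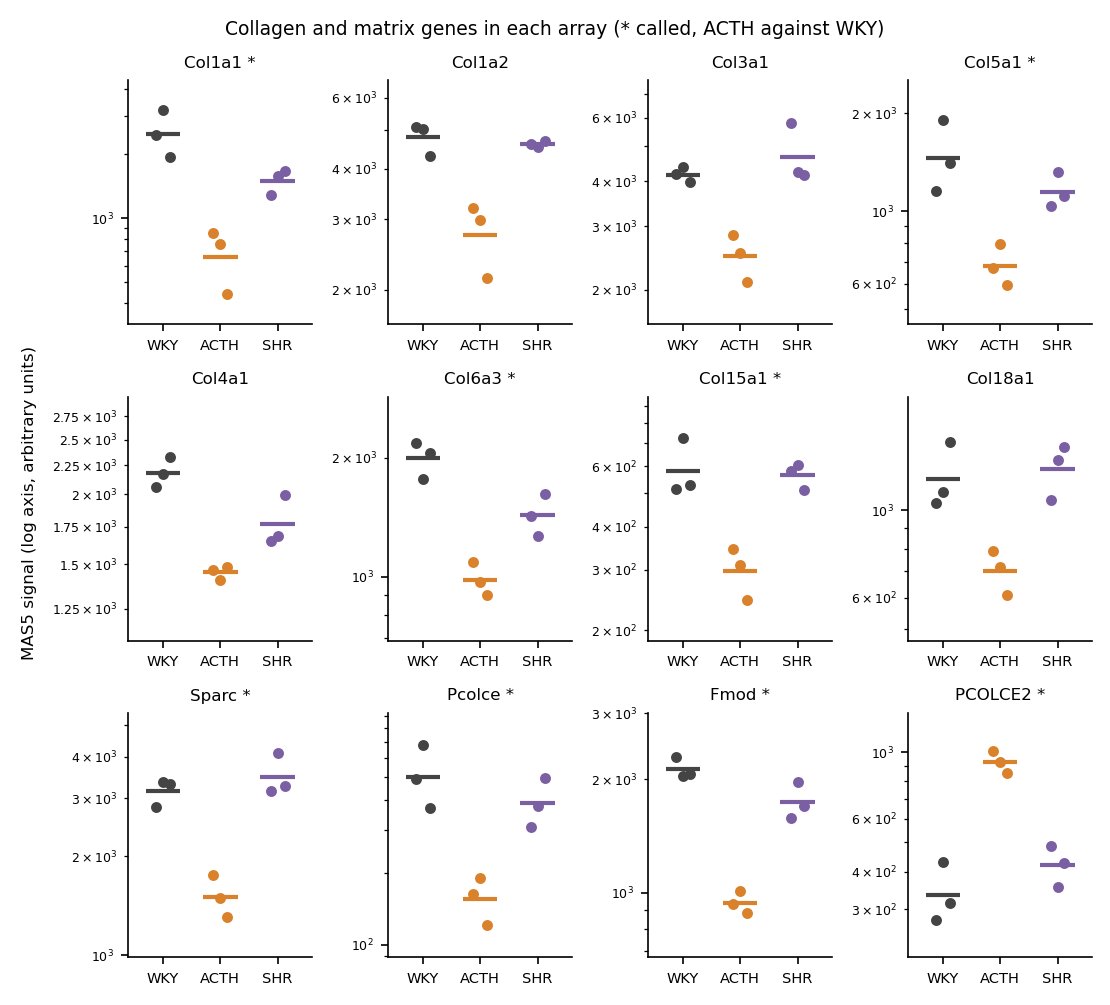
MAS5 signal (log axis, arbitrary units) of 12 collagen and matrix genes by their brightest probeset on the 3 WKY, 3 ACTH and 3 SHR arrays, with a point for each array, a bar for the geometric mean of a group and an asterisk for genes called between ACTH and WKY. In 11 genes the ACTH points lie below all WKY points, and in PCOLCE2 they lie above, at 853 to 1011 against 276 to 431.

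Markers of the adventitial fibroblast were mixed, and which cells of the artery held the matrix RNA was not tested. Of 7 markers, Pdgfra (0.53, adjusted p = 0.389) and Dcn were above 0 and 5 were below, and the sums were 12213, 13539 and 11040 in WKY against 10406, 9648 and 8248 in ACTH, sums in which Col1a1 and Col1a2 take part. Genes for the growth factor TGF-beta, which drives collagen synthesis, held no call among 30 kept, with differences from -0.54 to 0.60. No gene among 11 metalloproteinases and inhibitors was called. Mmp3, which degrades matrix, had the lowest adjusted p of these, at 31.1, 67.2 and 50.8 against 99.1, 106 and 94.0 (adjusted p = 0.0667). Adamts9, a protease of proteoglycans, fell from 133, 100.4 and 179 to 46.1, 48.5 and 43.9 (-1.53 ± 0.21, adjusted p = 0.00853). The carboxypeptidase-like Cpz and Cpxm2, the guidance protein gene Slit3 and Ecm1, an extracellular matrix glycoprotein, also fell, with differences of -1.86, -1.14, -0.91 and -0.68. Cpxm2 is given by its brighter probeset.

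Matricellular proteins sit in the matrix and act on cells rather than bear load. Of 13 matricellular genes 3 rose and none fell, against 1.2% called over all genes. Ccn2, the connective tissue growth factor, went from 1088, 997 and 969 to 1814, 1689 and 2257 (0.91 ± 0.18, adjusted p = 0.0461). Ccn5, a family member that restrains smooth muscle growth, went from 83.0, 246 and 121 to 466, 434 and 412 (1.69 ± 0.31, adjusted p = 0.0312). Spp1, osteopontin, went from 33.2, 38.2 and 35.7 to 113, 93.9 and 80.1 (1.41 ± 0.23, adjusted p = 0.0189). The treated arrays were above the controls in all 3, and WKY 2 was the highest control in Ccn5. Tnc (-1.18, adjusted p = 0.0887) lay in the other direction. The spondin genes Spon1 (1.09 ± 0.19) and Spon2 (0.93 ± 0.18) and the matrix signal gene Reln (0.96 ± 0.18) also rose.

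Of 14 kept genes of the insulin-like growth factor (IGF) axis 1 rose, 1 fell and 12 were not called, against 1.2% called over all genes. Both calls were binding proteins. These hold IGF in the circulation and in tissue and decide how much reaches its receptor. Igfbp3, the main carrier, rose by both of its probesets, and 1 of them read 303, 404 and 369 in WKY and 1250.5, 1481 and 901 in ACTH (1.74 ± 0.20, adjusted p = 0.00553). The other probeset gave 1.76 ± 0.21. Igfbp5 fell from 649, 473 and 463 to 227, 242 and 194 (-1.24 ± 0.17, adjusted p = 0.00852). Igfbp2 was at 475, 407 and 434 against 183, 159 and 233 and was not called (-1.21 ± 0.34, adjusted p = 0.155). Igf1 itself, at 149, 420.0 and 228 against 507, 1053 and 353, overlapped between the groups (adjusted p = 0.221).

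Rbp4, which carries retinol out of liver and fat cells, went from 20.1, 32.2 and 10.8 to 170.5, 188 and 112, at least 6.52-fold with signals under 20 raised to 20 (adjusted p = 0.00668). It passed the minimum only with the help of the ACTH arrays. Cfd, or adipsin, a serine protease of fat cells, rose from 27.2, 111 and 37.0 to 277, 339 and 159 (2.36 ± 0.45, adjusted p = 0.0362). Car3, a carbonic anhydrase of fat and slow muscle, rose from 18.5, 86.4 and 27.6 to 241, 232 and 114 (2.39 ± 0.49, adjusted p = 0.0461). In Cfd and Car3 WKY 2 was above and ACTH 3 below the rest of its group. These were the 3 calls among 20 adipocyte genes, against 1.2% called over all genes. The median of the 20 was 0.14, and -0.09 with scan day as a block. The fat cell markers Fabp4 and Lipe, given with the wall markers above, were not called, and Plin1 and Lep were under the minimum. Lpl (-0.54), Lipe (-0.48) and Fasn (-0.44), which store or release fat, were below 0, and Plin4 was at 0.05.

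Angptl4, which inhibits lipoprotein lipase and is induced by fatty acids and glucocorticoids, rose from 84.0, 133 and 69.5 to 356, 450.3 and 271 (1.94 ± 0.27, adjusted p = 0.00853). It was the only call among 35 genes of fatty acid uptake and oxidation, against 1.2% called over all genes. Cpt1a, the gate to oxidation in mitochondria, was at 262, 328 and 415 against 595, 455 and 487 (0.63 ± 0.18, adjusted p = 0.162), and the fatty acid receptor gene Cd36 at 40.4, 37.6 and 18.9 against 113, 71.0 and 105 (1.62 ± 0.35, adjusted p = 0.056). Smpd3, a neutral sphingomyelinase, rose from 47.6, 128 and 81.6 to 374, 511 and 259.8 (2.21 ± 0.36, adjusted p = 0.0182), and Ces1d, a lipid-cleaving carboxylesterase, from 17.0, 38.8 and 23.8 to 138, 94.8 and 68.3 (1.94 ± 0.35, adjusted p = 0.0277). Groups did not overlap in these genes. Ces1d had passed the minimum through the ACTH arrays alone. Aldehyde dehydrogenases went opposite ways. Aldh1a1, which makes retinoic acid, fell from 86.9, 75.9 and 63.0 to 25.5, 28.8 and 22.4 (-1.55 ± 0.17, adjusted p = 0.00456), and Aldh3a1, which clears aldehydes, rose from 139, 181 and 131 to 443, 435 and 311 (1.40 ± 0.18, adjusted p = 0.00816). No gene of cholesterol synthesis was called among 19.

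Genes known to be induced by glucocorticoids did not move as a block. Of 30 kept, 4 rose, 3 fell and 23 were not called, against 1.2% called over all genes. In the list 19 were below 0, against 3160 of all 6898 genes, and the median was -0.18. Those that rose were Angptl4, Nfil3, Il1r2 and Cdkn1c, the last a cell cycle inhibitor that went from 123, 155 and 114 to 208, 261 and 254 (0.89 ± 0.16, adjusted p = 0.028). Il1r2 had passed the minimum through the ACTH arrays alone. Those that fell were Per1, Rgs2 and Ddit4. Ddit4, which restrains growth signalling through mTOR, fell from 393, 279 and 377 to 151, 123 and 121 (-1.40 ± 0.22, adjusted p = 0.0175). Several usual reporters of receptor activity were not called. Fkbp5, a receptor co-chaperone, was at 125, 338 and 368 in WKY and 149, 162 and 146 in ACTH (adjusted p = 0.52), and Tsc22d3, or GILZ, at 593, 745 and 753 against 458, 425 and 417 (-0.68 ± 0.15, adjusted p = 0.0643). Klf9 (-0.55) and Sgk1 (-0.46) were below 0, whereas Dusp1 was higher on every treated array, at 600.0, 949 and 796 against 1099, 1214 and 1651 (0.76 ± 0.20, adjusted p = 0.127). The glucocorticoid receptor palindrome, GNACA followed after any 3 bases by TGTNC, occurred in 0.397% of all promoters, in 0 of 30 raised and 0 of 40 lowered genes, and in 1 of 25 of the list, Fam107a. That window of 250 bases holds no distant element.

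The receptor genes for the steroid were not called. Nr3c1, the glucocorticoid receptor gene, was at 386, 371 and 412 in WKY and 377, 347 and 391 in ACTH (-0.07 ± 0.13, adjusted p = 0.888), and Nr3c2, the mineralocorticoid receptor gene, differed by -0.20 ± 0.18 (adjusted p = 0.731). An SE of 0.13 to 0.18 leaves small changes undetected. Hsd11b1, which regenerates active corticosterone inside cells, was at 96.2, 86.7 and 55.6 against 205, 151 and 145, without overlap and without a call (1.09 ± 0.31, adjusted p = 0.155). None of the 11 kept genes of this list was called.

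Genes that set vascular tone held few calls. Rgs2, which shortens signalling from vasoconstrictor receptors, fell from 940.2, 914 and 980.2 to 505, 487 and 473 (-0.95 ± 0.14, adjusted p = 0.0125). Rgs5, a marker of mural cells, was at 711, 509 and 782 against 346, 387 and 386 (-0.82 ± 0.18, adjusted p = 0.0689). Both had no overlap between the groups, and no other of the 40 genes for RGS proteins, G proteins and cAMP signalling was called by its brightest probeset. Enpep, aminopeptidase A, which turns angiotensin II into angiotensin III, rose by its dimmer probeset from 52.7, 67.0 and 72.3 to 201, 184 and 214 (1.65 ± 0.15, adjusted p = 0.00456), while its brighter probeset was at 200.1, 138 and 132 against 184, 141 and 165 (0.07 ± 0.21, adjusted p = 0.931). The probesets thus disagreed, and the SHR arrays had 64.8 to 74.5 in the dimmer one. Of the other genes of the renin-angiotensin system, Agtr1a, the angiotensin II receptor gene, was at 69.5, 121 and 50.1 against 159, 142 and 144 (0.98 ± 0.30, adjusted p = 0.181) and Ace at 261, 285 and 241 against 371, 409 and 332 (0.50 ± 0.19, adjusted p = 0.306). No array of the groups overlapped in either, and neither was called.

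Nitric oxide and endothelin genes were not called by their brightest probesets. Nos3 differed by 0.01 ± 0.28 and Edn1 by 0.50 ± 0.26. The probesets of Cav1, the coat protein of caveolae, disagreed. Its bright probeset was at 3130.2, 1639.9 and 2119 against 2128, 2018 and 2281 (-0.05 ± 0.21, adjusted p = 0.957), and a dim one rose from 35.1, 25.3 and 27.4 to 80.3, 73.6 and 66.1 (1.33 ± 0.19, adjusted p = 0.0108). Ide and Pdha1 were alike, each with a dim probeset that rose and a bright one at -0.09 and -0.01. Among 21 contractile genes, 18 of calcium handling and 24 of ion channels and sodium pumps no gene was called. Myh11, Tagln, Myl9 and Tpm2, the brightest of the contractile genes, had differences between -0.13 and -0.10. Slc24a3, a sodium-calcium exchanger outside those lists, fell from 375, 318 and 304 to 162, 218 and 205 (-0.78 ± 0.15, adjusted p = 0.0423).

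In the endothelium and in coagulation the calls were rises. F3, tissue factor, the trigger of coagulation, went from 361, 459.7 and 330.0 to 919, 903 and 943 (1.28 ± 0.16, adjusted p = 0.00732). Thbd, thrombomodulin, which turns thrombin toward anticoagulation, went from 152, 225 and 229 to 453, 322 and 428 (1.00 ± 0.20, adjusted p = 0.0425). Lyve1 and Mmrn1, both typical of lymphatic endothelium, went from 27.4, 46.7 and 33.9 to 133, 153 and 98.3 (1.84 ± 0.28, adjusted p = 0.0128) and from 71.5, 52.5 and 72.3 to 207, 151 and 227 (1.57 ± 0.26, adjusted p = 0.019). Pdpn, another gene of lymphatic vessels and of some fibroblasts, rose by 1.26 ± 0.23 (adjusted p = 0.029). Lyve1 is also made by macrophages of the vessel wall, and Lyve1 had a smaller difference of 0.68 with scan day as a block. The blood endothelial genes Vwf (-0.41) and Pecam1 (0.34) were not called. Kdr, another endothelial marker, was at 78.5, 95.5 and 83.4 against 146, 120 and 141. It was higher on every treated array without a call (0.66 ± 0.19, adjusted p = 0.166). The remaining kept markers Tie1 (0.07) and Nos3 (0.01) were not called either. Over 27 endothelial genes the median was 0.25, and 0.04 with scan day as a block.

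Cell cycle genes were called in both directions. Ccnd1, the cyclin that carries cells out of rest, fell from 991, 865 and 703 to 459.6, 490.0 and 349 (-0.98 ± 0.18, adjusted p = 0.028), and a dimmer probeset fell as well. Pola2, of DNA polymerase alpha, fell by 1.10 ± 0.18, and Cdkn1c rose as given above. Among 32 immediate early genes, which answer stimuli within minutes, 27 were above 0 with a median of 0.38, yet only Ier5 (1.06 ± 0.21, adjusted p = 0.0432) rose and Gadd45g (-1.38 ± 0.19, adjusted p = 0.00852) fell. Of all 6898 genes 3738 were above 0, and 1.2% were called. Fos illustrates the spread, at 56.1, 364 and 40.0 in WKY and 445, 609 and 731 in ACTH (2.64 ± 0.64, adjusted p = 0.0991). WKY 2 again stood with the treated arrays rather than with the other controls.

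Genes of basal metabolism held few calls. Among 75 genes of oxidative phosphorylation none was called, and 59 were below 0 with a median of -0.11. Among 42 cytosolic ribosomal proteins 33 were above 0 with a median of 0.12, and the call was Rpl3l, a muscle form, at 53.6, 46.8 and 51.1 against 20.6, 25.4 and 28.0 (-1.04 ± 0.21, adjusted p = 0.0455). Mt3, a metallothionein that binds zinc and copper, fell from 58.2, 96.1 and 114 to 26.0, 10.4 and 14.2, at least 3.94-fold (adjusted p = 0.00852), the call among 49 antioxidant and metallothionein genes. Hspa2 (1.00 ± 0.19) was the call among 48 heat shock and folding genes. Over all 6898 genes 3738 were above 0, 3160 were below 0, the median was 0.02 and 1.2% were called. A single call in lists of 42 to 49 genes is near that share.

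Several called genes belonged to none of the 41 lists. Nrep, a gene of tissue repair, fell from 698, 1012 and 669.7 to 279, 279 and 228 (-1.58 ± 0.19, adjusted p = 0.00553). Basp1, a membrane protein of growing nerve endings, fell from 204, 194 and 111 to 48.1, 40.9 and 43.9 (-1.89 ± 0.26, adjusted p = 0.00853), and the SHR arrays were lower still, at 3.84 to 6.49. Mettl26 fell from 65.5, 66.8 and 45.2 to 12.2, 12.2 and 15.3, at least 2.91-fold (adjusted p = 0.00553). It passed the minimum only with the help of the WKY arrays. Sorl1, a sorting receptor, fell by 2 probesets (-1.85 ± 0.23 and -1.09 ± 0.15), and a further one was at -0.16 ± 0.17 (adjusted p = 0.785). C1qtnf1, Cdh13, Cntn2, Higd1a and Prr12 fell, with differences of -0.99 to -0.71. Adgrv1, an adhesion receptor, rose from 24.1, 27.7 and 17.3 to 67.9, 77.8 and 68.2 (1.65 ± 0.28, adjusted p = 0.0221), and Inmt, a methyltransferase, from 56.2, 101 and 59.0 to 201, 189 and 163 (1.40 ± 0.21, adjusted p = 0.0128). Steap2, Rnase4, Ptgr1, Dixdc1 and Stk38l rose by 1.50, 0.86, 0.92, 0.92 and 0.75. Adgrv1 and Dixdc1 had passed the minimum through the ACTH arrays alone and Cntn2 through the WKY arrays alone, so these calls support nothing.

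**Figure D5:**
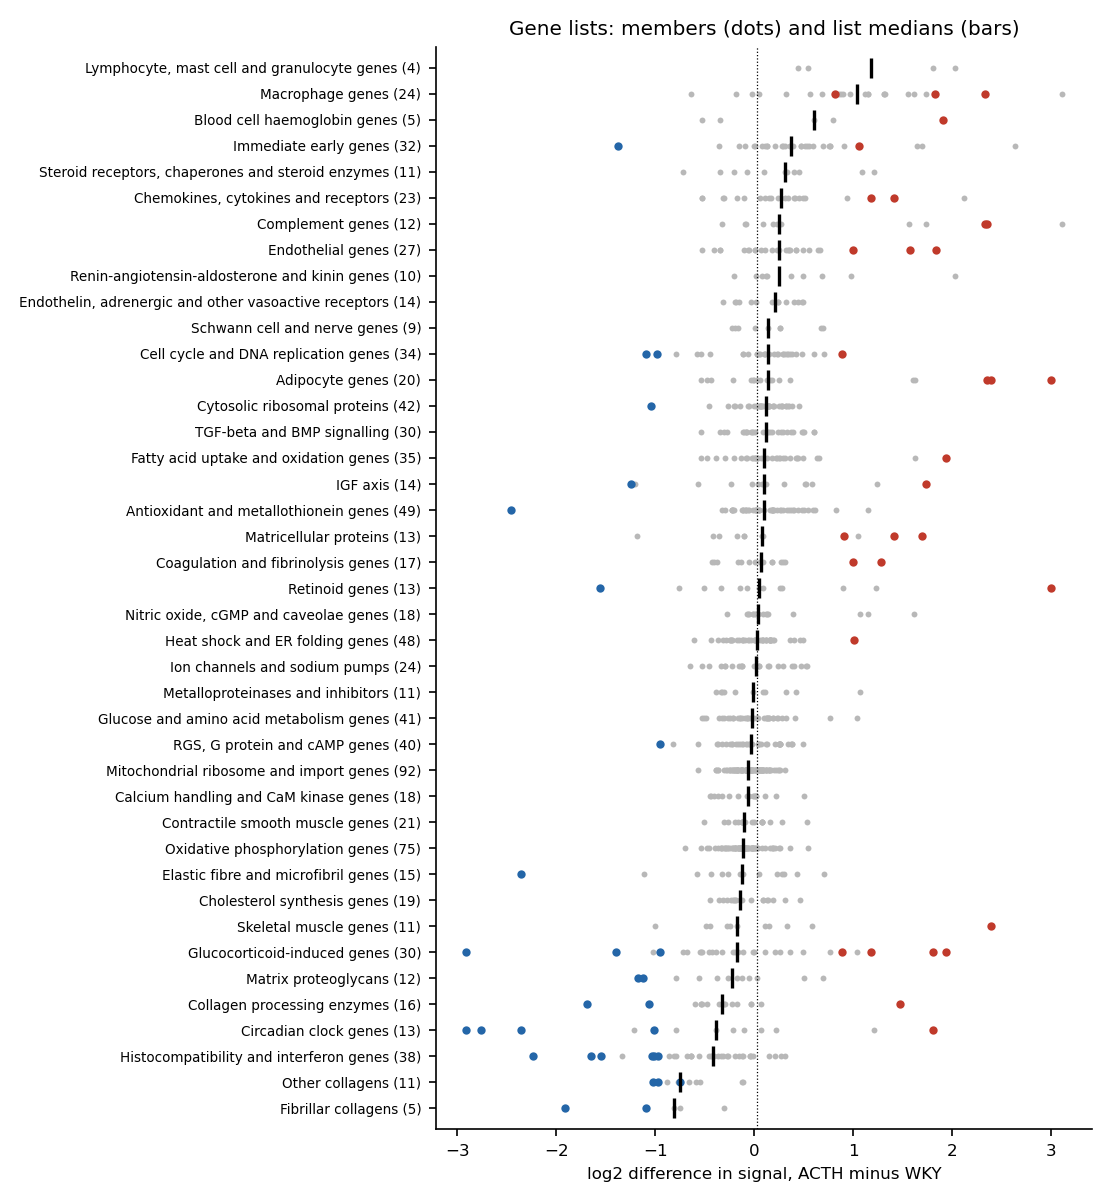
Log2 differences in signal between ACTH and WKY arrays for the kept members of 41 gene lists (dots, red or blue where called) with the list median as a black bar and the median over all 6898 genes as a dotted line. The collagen lists have their medians farthest below 0, at -0.81 and -0.75, and the macrophage list and the list of 4 lymphocyte, mast cell and granulocyte genes lie farthest above, at 1.04 and 1.18.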

How the data were processed

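The authors hybridised amplified RNA to Affymetrix RAE230A arrays and deposited MAS5 signal intensity values, scaled to a trimmed mean of 150, linear and with no counts or depth, so the number of arrays limits precision. The build and annotation of the probes are not given in the sources used here, and genes were named from the platform annotation. Signals were taken as log2 of the deposited intensity and fitted with limma 3.58.1 in R 4.3.3 (lmFit, eBayes, 1 mean a group, 9 arrays, 6 residual degrees of freedom), with Benjamini-Hochberg adjustment over 9099 probesets and a threshold of 0.05. The script was tested on simulated data. Members, lists, motifs and tests were chosen with earlier results of these data known. Each list gene stands by its probeset of highest mean log2 signal, and all called genes, the called and up to 6 further members of each list and a set of steroid and vascular genes could be named. "At least" folds are means after signals under 20 were raised to 20. Of 10412 gene identifiers with 1 symbol on the array 10379 matched the RefSeq gene table, and 30 of 42 raised and 40 of 49 lowered genes had a promoter of 250 bases there. Alternatives were other filters, scalings and blocks, and leaving out each array.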

Additional observations from a re-analysis of the deposited data

How the results depend on the processing

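The count of called probesets (110, 50 higher and 60 lower) depended on the processing, while no called gene changed direction under any alternative that was run. It was 0 (0 higher, 0 lower) over all 15866 non-control probesets, with 1434 at an unadjusted p below 0.05 and a lowest adjusted p of 0.0871, 0 with scan day as a block and 0 with the GAPDH ratio as a covariate, in fits with 3 and 5 residual degrees of freedom against 6. It was 201 (95 higher, 106 lower) with array weights, the lowered count was 95 with a variance trend, and the raised count was 28 at a mean signal of at least 100, 33 with scan day as a random block and 28 with the 6 arrays alone. The contrast test without moderation gave 5 (3 higher, 2 lower) after Benjamini-Hochberg adjustment and 376 (164 higher, 212 lower) at the study's own unadjusted thresholds. Leaving out 1 array gave 33 to 133 calls, 10 to 88 higher and 19 to 45 lower (133 without WKY 2, and 44, 34, 33, 36 and 40 without WKY 1, WKY 3, ACTH 1, ACTH 2 and ACTH 3), and 2459 to 3037 probesets whose groups did not overlap against 1862. With the replicate block 97 were called (46 higher, 51 lower), of which 85 were shared, and arrays with the same number correlated at 0.03, 0.128 and 0.014 in their deviations, so they share only a number. With scan day as a block 21 of the 41 list medians moved by more than the spread between replicates, and these turned sign: contractile (-0.10 to 0.15), vasoactive receptors (0.21 to -0.20), nitric oxide (0.04 to -0.03), adipocyte (0.14 to -0.09), retinoid (0.05 to -0.21), chemokine (0.27 to -0.05) and Schwann cell (0.14 to -0.46). With the GAPDH ratio as a covariate 16 moved. The cause of these changes was not tested. The arrays give no detection calls here, so signals near the minimum of 44.3 are the least certain.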
